A study of Drosophila melanogaster with 9 samples.

Results

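Odorant-binding proteins are small soluble proteins that support cells secrete, in great amounts, into the fluid bathing the sensory neurons of olfactory and taste hairs of insects. They bind odorants, pheromones and other small hydrophobic molecules. In Drosophila melanogaster some members are found outside sensory hairs, as components of seminal fluid made in males or as carriers in the fat body, the hemolymph and glia.

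The members were all genes whose symbol begins with Obp and a digit, or is lush or an older name of the family, each represented by the Affymetrix probe set with the highest mean over the arrays. They came to 48 genes, read by 51 probe sets, of 11982 genes named on the array. The current annotation lists 52 such genes. Another 4 probe sets, which name Obp50b together with Obp50c or Obp57d together with Cpr57A, were left out because they name several genes. No probe set here named Obp83a alone, and it was not analysed here. No gene or protein sequence of the members was used here.

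Heads of a strain that the labels call 5073 were sampled at zeitgeber times (ZT, hours after lights-on) 3, 7, 11, 15, 19 and 23. The groups were ZT3 with 3 arrays, ZT7 and ZT11 with 1 each, ZT15 with 2, and ZT19 and ZT23 with 1 each. The labels give no genotype, sex, age, light schedule or treatment for the flies, which are described by strain and time only, and they do not say whether replicate arrays came from separate collections, so p-values measure the spread between these arrays. Levels are on the log2 scale of GCRMA, the authors' probe set summary, so that a difference of 1 is 2-fold, and they are set against each other only within a probe set, since probe sets differ in sensitivity.

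The arrays, all labelled as heads, differed in transcripts that belong to different body parts. In 7 of them accessory gland and testis transcripts were high, and the labels do not say why. ZT3 replicate 1 and ZT15 replicate 2, known from earlier results of these data to stand apart, are called the 2-array set. Across the tested probe sets the arrays of this set correlated at r = 0.988 with each other and at 0.752 to 0.905 with the other 7, which correlated at 0.915 or more among themselves. Median levels over all probe sets were 6.05 and 6.06 in the 2-array set, against 6.36 to 6.65 in the others. A list of 21 accessory gland and testis genes had median levels of 3.32 and 3.44 in the 2-array set, against 9.75 to 11.74 in the others, and 20 of the 21 were lower in both arrays of the set than in all others, the exception being Acp95EF. A list of 27 digestive enzyme genes of the gut had medians of 4.12 and 5.16 in the set. Outside it the medians were 5.51 and 5.69 at ZT3 and 8.22 to 9.88 in the remaining 5 arrays. The eye was present throughout: all 8 phototransduction genes listed reached 5 in every array, with medians from 12.72 to 13.47.

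The largest pattern in the family concerned the members of antennal sensilla. Of the 9 listed antennal members, all 9 were higher in both arrays of the 2-array set than in all 7 others, and 7 of them stood over 8-fold above the highest of the others. Over all 48 members the counts were 29 above and 7 over 8-fold above, beside 37.9% and 0.342% of all named genes. Quantile normalization gave 24 members above, beside 35% of all named genes, and no longer Obp18a, Obp50a, Obp56d, Obp56h and Obp99c. Centring each array on its median, which moved the set by 0.48 relative to the others, gave 37 members, beside 66.2% of all named genes. The 7 largest differences were over 8-fold under each scaling, and also with values below 5 in the other arrays set to 5. These counts compare arrays and not times of day, and no test was made between sets of arrays that the data and not the labels define.

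Obp83b, known as Os-E and secreted in trichoid sensilla that detect pheromones, had levels of 14.05 and 14.16 in ZT3 replicate 1 and ZT15 replicate 2. The other 7 arrays ran from 3.92 to 6.24 with a median of 4.43. Its lowest value in the set was thus 7.81 above the highest of the others, and its mean there was at least 453-fold over theirs. Here and for the next genes, values below 5 in the other arrays were set to 5, so that such folds are lower bounds. Obp19a, another antennal member, had 12.41 and 12.62 in the set against 3.00 to 4.57 in the others, at least 183-fold higher, with all 7 of the others below 5. Its second probe set showed the same split, with 13.20 and 13.33 against 2.56 to 4.40. Both probe sets of Obp19a thus separated the same 2 arrays from the rest, with no overlap.

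Obp84a, which is expressed in the antenna, had 10.37 and 10.32 in the 2-array set and lay between 2.49 and 2.73 in the other 7 arrays. Obp69a, whose level is known to respond to the male pheromone cis-vaccenyl acetate, had 13.16 and 13.60 against 5.87 to 7.25. The gene lush, whose protein binds that pheromone and is needed for the normal response of its sensory neurons, had 11.62 and 11.55 against 4.37 to 5.42. Obp84a was at least 40.6-fold, Obp69a 106-fold and lush at least 85.3-fold higher in the set. In a bulk sample, fewer cells of a type and less RNA per cell cannot be told apart.

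Obp28a, an abundant member of basiconic sensilla, had 13.01 and 13.02 against 6.11 to 7.55. Obp59a, which is needed for humidity sensing, had 8.19 and 8.22 against 2.99 to 3.39. Its second probe set stayed between 2.34 and 2.47 in all 9 arrays, so the gene's probe sets did not show the same pattern. Obp19a, Obp59a and Obp84a passed the filter on low values, a level of 5 on at least 2 arrays, through the 2-array set alone.

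Obp56d and Obp19d, the remaining antennal members, are also made in taste organs. Obp56d had levels of 15.39 and 15.42 in the 2-array set and 15.08 to 15.30 in the others. Obp19d had 15.44 and 15.53 against 14.46 to 14.87. Both were high in every array, with differences of 0.16 and 0.73 between the mean of the set and the median of the others, where the 7 members above differed by 5.14 to 9.67.

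**Figure D1:**
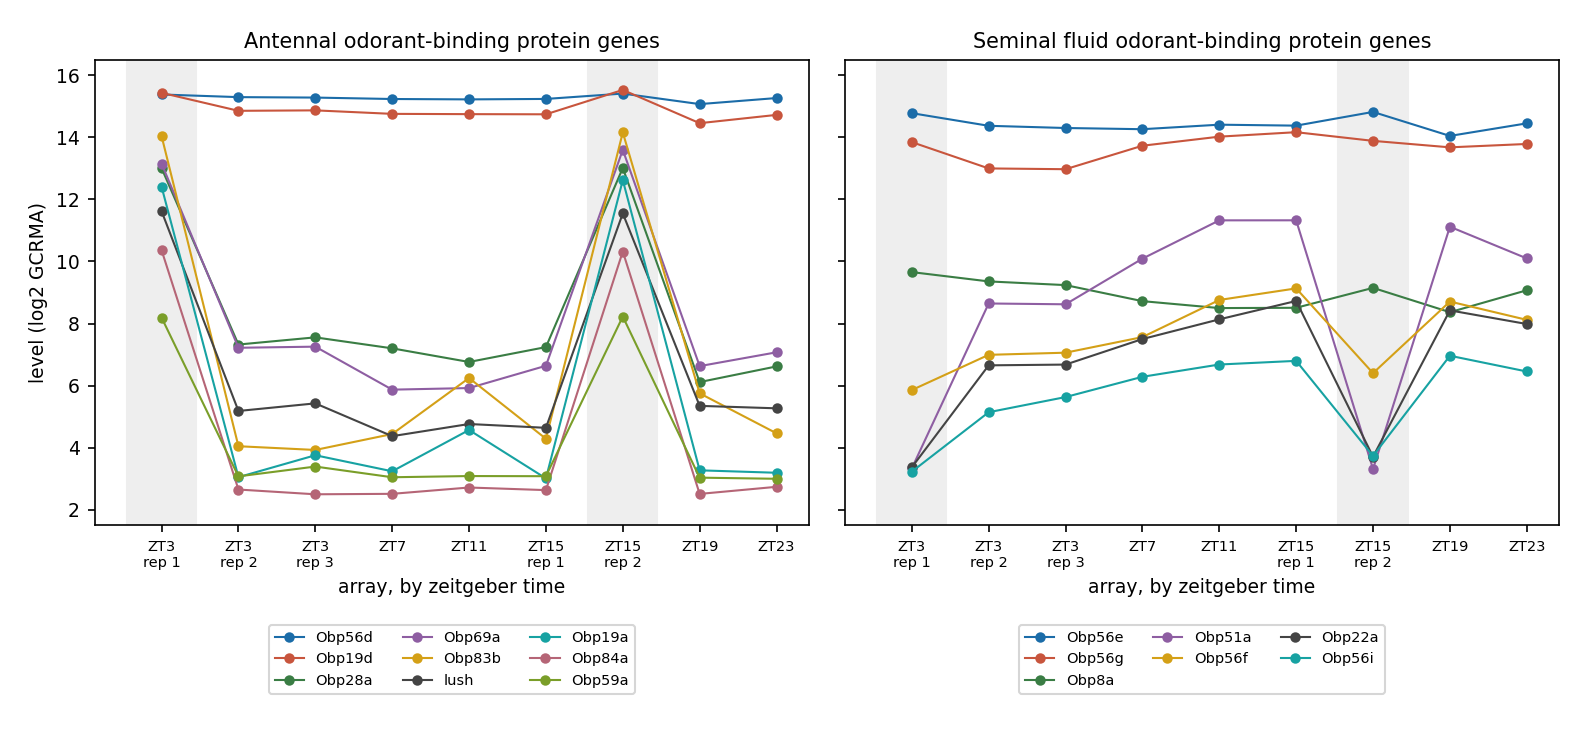
Levels on the log2 scale (vertical axis) of the 9 antennal members (left) and the 7 seminal fluid members (right) in each of the 9 arrays, ordered by zeitgeber time; each point is 1 array and grey bands mark ZT3 replicate 1 and ZT15 replicate 2. In the bands 7 antennal members stand far above their level in all other arrays, while Obp51a, Obp22a, Obp56i and Obp56f lie below it.

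Some other genes of olfaction showed the same split of arrays. Of the perireceptor list, 21 genes whose products act on odorants around the neuron or in its support cells, 9 were higher in both arrays of the 2-array set than in all others, near the 37.9% of all named genes, and 4 were over 8-fold higher, beside 0.342%. The antennal protein gene a5 had 12.02 and 11.99 in the set against 3.05 to 3.29 in the others. The chemosensory protein gene a10 had 12.64 and 12.65 against 5.13 to 5.67, and the antennal esterase gene Jhedup 12.49 and 12.68 against 3.66 to 5.85. The ammonium transporter gene Amt, expressed in antennal support cells, had 8.25 and 7.97 against 2.23 to 3.38. Snmp1, a membrane protein gene of pheromone-sensing neurons, had 9.82 in both arrays of the set and 6.97 to 7.26 in the others. Snmp2 overlapped, with 7.42 and 7.69 against 7.30 to 7.86.

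Among the receptors, 41 of 57 odorant receptor genes were higher in both arrays of the set than in all others, beside 37.9% of all named genes. That share was 66.2% with each array centred on its median. Most of the 57 lay near the bottom of the scale, and 11 passed the filter on low values. Orco, the co-receptor shared by odorant receptors, had 10.28 and 10.23 in the set against 3.99 to 5.37. Or59b, a receptor of basiconic sensilla, had 7.14 and 7.84 against 3.19 to 3.57, and Or42a, a receptor of the maxillary palp, had 5.61 and 5.97 against 2.91 to 3.73. The number of odorant receptor genes that reached 5 was 13 and 14 in the set and 2 or 3 in each other array.

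For ionotropic receptors, 23 of 53 were higher in both arrays of the set, among them the co-receptor gene Ir25a with 7.48 and 7.13 against 4.45 to 5.20. For gustatory receptors the count was 23 of 56, among them the carbon dioxide receptor gene Gr63a with 5.17 and 5.63 against 2.01 to 2.28. The ionotropic and gustatory counts lie close to the 37.9% of all named genes that were higher in both arrays of the set.

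**Figure D2:**
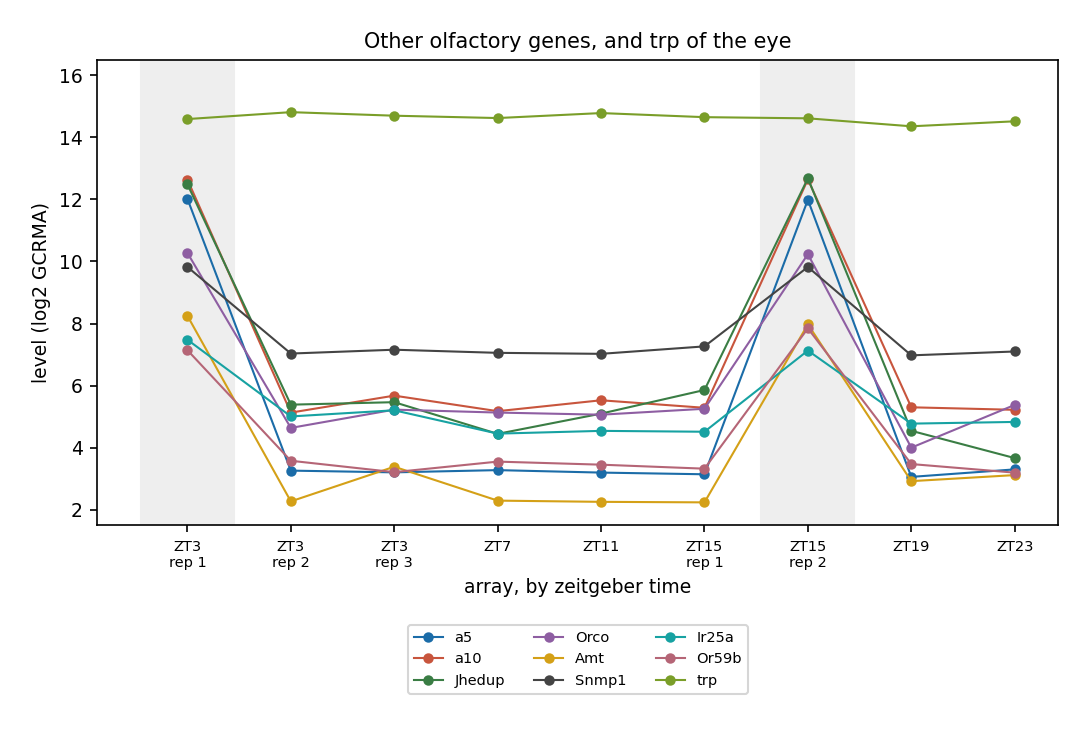
Levels on the log2 scale (vertical axis) of 8 other olfactory genes and of trp, a channel gene of the eye, in the 9 arrays by zeitgeber time; grey bands mark ZT3 replicate 1 and ZT15 replicate 2. All 8 olfactory genes are highest in the bands, while trp lies between 14.36 and 14.82 throughout.

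Members known from seminal fluid fell into 2 kinds. Obp51a, which males transfer to females at mating, had levels of 3.33 and 3.31 in ZT3 replicate 1 and ZT15 replicate 2. In the other arrays it had 8.65 and 8.62 at ZT3, 10.09 at ZT7, 11.33 at ZT11, 11.33 at ZT15, 11.12 at ZT19 and 10.10 at ZT23. The gene was thus low in the set, intermediate at ZT3 outside it and high in the remaining 5 arrays. The accessory gland and testis list took the same order, with medians of 3.44 and 3.32 in the set, 9.79 and 9.75 at ZT3 outside it and 10.84 to 11.74 in the remaining 5.

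Obp22a had 3.36 and 3.70 in the 2-array set, against 6.65 and 6.67 at ZT3 and 7.50 to 8.73 at the later times in the others. Obp56i had 3.22 and 3.73 against 5.14 and 5.63 at ZT3 and 6.28 to 6.96 later. Obp56f had 5.85 and 6.40 against 6.99 and 7.06 at ZT3 and 7.56 to 9.13 later. In each of these genes the 7 other arrays lay above the set, and within the 7 the ZT3 arrays were the lowest, so that time of day and the amount of male reproductive transcripts moved together. The part of those transcripts in the values at each time was not tested. On the deposited scale these 4 genes were the members lower in both arrays of the set than in all others, beside 15.4% of all named genes. Quantile normalization added Obp46a and Obp50e, both near the bottom of the scale, for 6 members beside 17.8%.

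The remaining seminal fluid members were measured at high levels in the 2-array set too. Obp56e had 14.79 and 14.83 there, against 14.05 to 14.46 in the others. Obp56g had 13.85 and 13.89 against 12.98 to 14.17, and Obp8a 9.66 and 9.15 against 8.36 to 9.36. The transcripts of these 3 genes were thus present in arrays where the accessory gland genes Acp26Aa (2.68 and 3.01) and SP (2.45 and 3.05), the sex peptide gene, were near the bottom of the scale. In Obp56g the ZT3 arrays outside the set, 13.00 and 12.98, were the lowest of the 9, as they were the lowest of the 7 in the accessory gland and testis list.

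Of the 4 taste organ members listed, 3 were higher in both arrays of the set, beside 37.9% of all named genes. Obp49a, which in the fly lets bitter compounds suppress the sweet response, had 13.20 and 13.21 in the set and 11.50 to 12.74 in the others. Obp57c had 13.52 and 13.59 against 12.37 to 12.83, and Obp19b 8.63 and 8.78 against 6.52 to 7.43. The 3 genes differed by 0.85, 0.98 and 1.74 between the mean of the set and the median of the others. Obp57e, a member of taste hairs linked to host plant choice in a related fly, stayed below 5, between 2.40 and 3.96, and overlapped between the sets.

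Members of the fat body, the hemolymph and glia were high in all arrays. Obp44a, made in glia, had 14.50 and 14.61 in the set against 13.92 to 14.20, and Obp99c 14.64 and 14.66 against 14.27 to 14.62. Obp99b, a target of the sex determination pathway expressed in the male fat body, had 13.56 and 14.03 against 13.17 to 14.08, with overlap. Obp99a, also expressed in the fat body, had 10.75 and 12.56 against 10.16 to 11.46 and is described with time of day.

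Of the other 24 members, 8 reached 5 in every array. Obp18a lay between 12.59 and 13.14, Obp57a between 10.76 and 12.09, Obp57b between 10.40 and 11.51, and Obp56a between 9.80 and 10.42. Obp56h, which affects cuticular hydrocarbons and mating, lay between 8.15 and 9.57, Obp83cd between 6.38 and 9.0, Obp83ef between 5.47 and 7.54 and Obp19c between 5.71 and 7.26. Apart from Obp56a, these were all higher in both arrays of the set, by 0.31 to 1.48, a pattern shared by 37.9% of all named genes. A second Obp19c probe set stayed between 2.37 and 2.51.

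The remaining 16 of the 24 were low. Obp99d reached 5 in ZT3 replicate 1 alone (5.26, lowest 3.65). Obp58b was between 2.69 and 4.80, with 4.80 and 4.75 in the set against 2.69 to 3.18. Obp58c lay between 3.61 and 4.70, Obp83g between 2.96 and 4.35, Obp73a between 3.42 and 4.17, Obp85a between 2.97 and 3.81 and Obp47a between 2.96 and 3.71. Obp58d (3.08 to 3.66), Obp56c (2.64 to 3.65), Obp93a (2.48 to 3.29), Obp56b (2.51 to 3.16), Obp50d (2.75 to 2.97) and Obp47b (2.06 to 2.91) had ranges under about 1 unit. Obp46a (2.45 to 2.55), Obp50e (2.23 to 2.45) and Obp50a (1.97 to 2.06) gave nearly constant values. Values at the bottom of the scale carry little signal, so that they do not show a transcript to be absent.

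**Figure D3:**
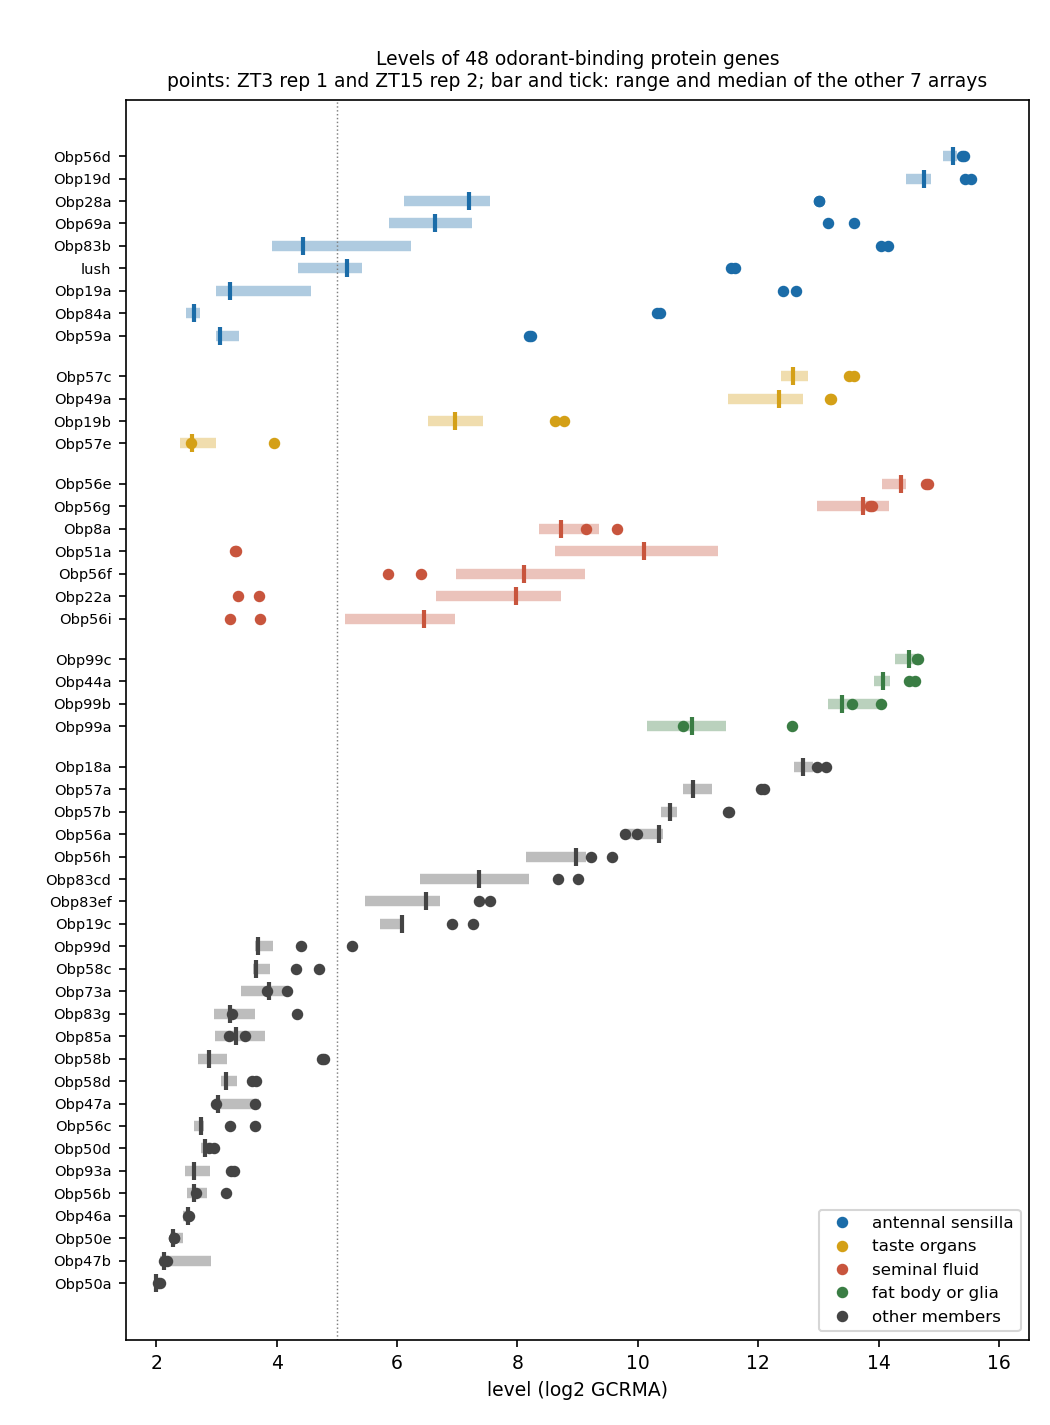
Levels on the log2 scale (horizontal axis) of the 48 members, grouped by role; points are ZT3 replicate 1 and ZT15 replicate 2, bars the range and ticks the median of the other 7 arrays, and the dotted line marks 5. The antennal members other than Obp56d and Obp19d show the widest gaps, and 4 seminal fluid members have their points to the left of their bars.

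Genes lying next to each other in the genome did not share 1 pattern. Obp19a, Obp19b, Obp19c and Obp19d are neighbours, and the mean of the 2-array set stood above the median of the others by 9.29, 1.74, 1.00 and 0.73 in that order. In the run of 6 from Obp56a to Obp56f, Obp56a differed by -0.47, Obp56d by 0.16, Obp56e by 0.43 and Obp56f by -1.99, while Obp56b and Obp56c stayed below 5. The neighbours Obp57c, Obp57b and Obp57a were alike, at 0.98, 0.97 and 1.16.

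The design also asks which transcripts differ between early night and morning, ZT15 against ZT3, and which follow a 24 h curve. Of the 48 members, 31 passed the filter on low values and were tested; the other 17 did not reach 5 on 2 arrays. With limma over 12105 probe sets and an adjusted p of 0.05, 0 members were called for ZT15 against ZT3, beside 0% of all tested probe sets. At an unadjusted p of 0.05, 1 member passed, Obp99a, beside 2.35% of all probe sets. It was higher at ZT15, as were 0.768% of all probe sets, and no member was lower, beside 1.58%. With the 2-array set as a block, 0 members were called, beside 0% of all. The block was defined from these same data, so SEs and p-values of all fits with it depend on that choice. Under the fit with the block 7 had an unadjusted p under 0.05 beside 12% of all. Of these, 4 were higher at ZT15, beside 5.76%, and 3 were lower, beside 6.23%.

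Obp99a had the clearest difference. Its levels were 11.46 and 12.56 at ZT15, against 10.75, 10.16 and 10.18 at ZT3. Both ZT15 arrays lay above all 3 ZT3 arrays, which was so for 2 tested members, Obp99a and Obp56g, beside 3.47% of tested genes. The mean was 12.01 ± 0.77 at ZT15 (SD, n = 2) and 10.36 ± 0.34 at ZT3 (SD, n = 3), a difference of 1.65 (SE 0.41, 3.13-fold) with a limma adjusted p of 1.00. With the block it was 1.51 (SE 0.16, 2.85-fold, limma's adjusted p = 0.192). Between arrays of the 2-array set the difference was 1.80, and it was 1.29 between the arrays outside it, so its sign did not depend on which kind of array was read. The same sign in both kinds of array was seen for 15 of the 31 tested members, so such agreement alone does not single out a gene.

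Over the day Obp99a had 10.59 at ZT7, 10.91 at ZT11, 11.27 at ZT19 and 11.36 at ZT23, so that the values from ZT15 to ZT23 were above those at ZT3 to ZT11. The fat body gene fit, a female-enriched gene that responds to feeding, was also highest in ZT15 replicate 2, at 14.13 against 12.82 to 13.43 in the 8 others. Lsp2, a storage protein gene of the fat body, had 11.48 and 14.49 at ZT15 and 13.30, 10.69 and 10.46 at ZT3. The median difference over the 5 tested fat body genes was -0.02, and -0.03 with the block, so the list as a whole was not higher at ZT15. The genes fit and Lsp2, picked after their values were seen, lay above this median. The part of fat body amount in the Obp99a values was not tested.

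Obp8a went the other way. It had 8.51 and 9.15 at ZT15, against 9.66, 9.36 and 9.24 at ZT3. It was the only tested member with both ZT15 arrays below all 3 ZT3 arrays, beside 8.86% of tested genes. The difference was -0.59 (SE 0.27, limma's adjusted p = 1.00), and -0.67 with the block (SE 0.13, adjusted p = 0.271 in limma). Within the 2-array set it was -0.51 and within the others -0.79.

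Obp83cd and Obp56h shared the sign of Obp8a once arrays of a kind were compared, where 15 of the 31 tested members kept their sign. Obp83cd had 6.93 and 8.67 at ZT15 and 9.0, 7.67 and 7.64 at ZT3, so that the groups overlapped. Its difference was -0.30 (SE 0.72) and, with the block, -0.55 (SE 0.14, limma's adjusted p = 0.344). Obp56h had 8.24 and 9.23 at ZT15 and 9.57, 9.11 and 8.98 at ZT3, a difference of -0.48 (SE 0.38) and, with the block, -0.61 (SE 0.16, limma's adjusted p = 0.348). Inside and outside the 2-array set the differences were -0.33 and -0.72 for Obp83cd and -0.35 and -0.80 for Obp56h. Without the block their signs rested on single arrays: Obp83cd had 0.57 without ZT15 replicate 1 and 0.15 without ZT3 replicate 1, and Obp56h 0.0059 without ZT15 replicate 1.

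Obp56f, Obp56i and Obp56g of the seminal fluid group had differences of 1.13 (SE 0.94), 0.60 (SE 1.22) and 0.75 (SE 0.34), and none was called. Without ZT15 replicate 1 the values of Obp56f and Obp56i were -0.23 and -0.93. For Obp56f it was 0.55 inside the 2-array set and 2.11 outside it, for Obp56i 0.51 and 1.41, and for Obp56g 0.04 and 1.18. Obp51a and Obp22a had -0.02 and 0.34 within the set and 2.70 and 2.06 within the others. Inside the set Obp51a, Obp22a and Obp56i lay below 5, where a difference can hardly be measured. Outside it the accessory gland and testis list had medians of 11.72 at ZT15, against 9.79 and 9.75 at ZT3, and its part in the values was not tested. Obp99b differed by 0.40 (SE 0.27), with 0.48 within the set and 0.20 within the others.

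The antennal members differed little between ZT15 and ZT3 in the 2-array set, where they were measured well above the bottom of the scale. The set holds a single array at each of these times and none at the others, so it has no replicates and does not cover the day. Within the 2-array set Obp83b differed by 0.12, Obp19a by 0.21, lush by -0.07, Obp28a by 0.01 and Obp84a by -0.04 between ZT15 and ZT3. Obp69a had the largest difference of the group there, 0.44, with -0.60 among the other arrays, where lush had -0.67. In the fit without the block their SD within a time reached 6.99, for Obp83b at ZT15 (n = 2), because each time pairs an array of the set with arrays outside it. The median difference over the 31 members was 0.25, against -0.03 over all tested genes, and -0.01 and -0.07 with the block.

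**Figure D4:**
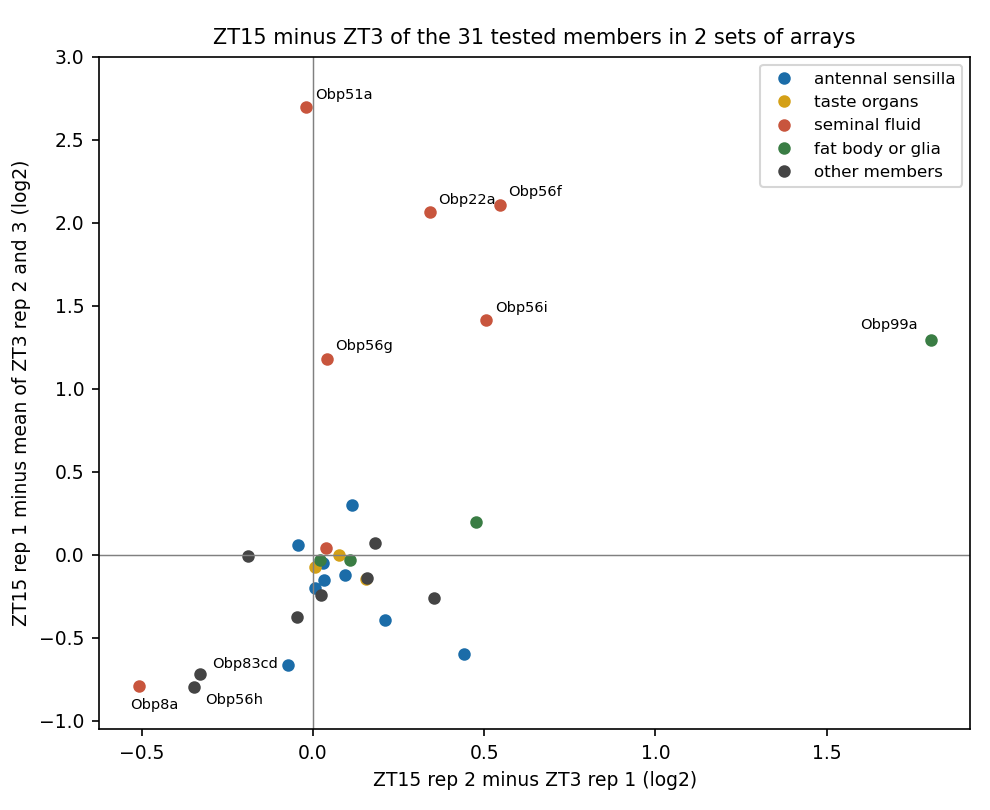
ZT15 minus ZT3 on the log2 scale for the 31 tested members, between arrays of the 2-array set (horizontal axis) and between arrays outside it (vertical axis, 1 ZT15 array against the mean of 2 ZT3 arrays); each point is 1 gene, coloured by role. Obp99a lies at 1.80 and 1.29, Obp8a, Obp83cd and Obp56h are below 0 on both axes, and 5 seminal fluid genes lie at 1.18 or more on the vertical axis and at 0.55 or less on the horizontal one. Of the 31 members, 15 have the same sign on both axes.

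With the 2-array set left out, 10 members were called by limma from 1 ZT15 array against 2 ZT3 arrays, beside 18.1% of all probe sets. Higher at ZT15 were Obp51a, Obp56f, Obp22a, Obp99a, Obp56g and Obp56i, beside 13.1% of all, and lower were Obp56h, Obp8a, Obp83cd and Obp69a, beside 5.04%. At an unadjusted p of 0.05 the count was 11, beside 35.7%. The spread behind these calls comes from the pair of ZT3 arrays alone (residual df of 1). For each gene limma draws it towards a value shared by all tested probe sets, and the ZT15 array is assumed to vary like the ZT3 arrays. In the same arrays 20 of 21 accessory gland and testis genes and 21 of 25 tested gut genes were called higher at ZT15. That ZT15 array had a gut list median of 9.88, against 5.69 and 5.51 in the ZT3 arrays.

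For the 24 h curve, 0 members were called by limma, beside 0.033% of all probe sets, and 1 had an unadjusted p under 0.05, beside 4.33%. That member was again Obp99a, with an amplitude of 0.77 (SE 0.19, 2.89-fold from trough to peak) and a fitted peak at ZT16.7 (SE 1.19 h, limma's adjusted p = 0.955). With the block 0 members were called, beside 0.248%, and 10 had an unadjusted p under 0.05, beside 16.9% of all probe sets. The amplitude is the distance from the curve's middle to its peak, in log2 units.

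Obp83cd came nearest to the threshold with the block. In the 7 arrays outside the set it had 7.67 and 7.64 at ZT3, 6.88 at ZT7, 6.38 at ZT11, 6.93 at ZT15, 7.36 at ZT19 and 8.19 at ZT23. The values were lowest at ZT11 and highest at ZT23, with the ZT3 arrays between. The amplitude was 0.75 (SE 0.11, 2.82-fold) with a peak at ZT22.9 (SE 0.45 h, limma's adjusted p = 0.0812), and 0.72 (SE 0.42) without the block. Without the 2-array set Obp83cd was called, with an amplitude of 0.80 (SE 0.09) and a peak at ZT23.3 (limma's adjusted p = 0.0454), as was Obp56f (1.05, SE 0.10, peak ZT15.5, limma's adjusted p = 0.0376). These were 2 of the 31 members, beside 0.562% of all probe sets. At an unadjusted p of 0.05 the count was 13, beside 28.4%. In the same fit 3 of the 21 accessory gland and testis genes were called. At the unadjusted threshold 20 of those 21 and 19 of the 25 tested gut genes passed. The part of such transcripts in the curves of the members was not tested.

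Obp8a and Obp56h peaked in the morning in the fits. Obp8a outside the set had 9.36 and 9.24 at ZT3, 8.72 at ZT7, 8.50 at ZT11, 8.51 at ZT15, 8.36 at ZT19 and 9.07 at ZT23, and Obp56h had 9.11 and 8.98, 9.14, 8.59, 8.24, 8.15 and 9.09 in the same order. Both were lowest at ZT19. With the block Obp8a had an amplitude of 0.39 (SE 0.08) at ZT2.4 (SE 1.09 h) and Obp56h 0.40 (SE 0.10) at ZT4.4 (SE 1.17 h), with limma's adjusted p of 0.177 and 0.221.

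Obp99a with the block had an amplitude of 0.74 (SE 0.13) at ZT16.7 (SE 0.82 h, limma's adjusted p = 0.127). The seminal fluid genes Obp56f and Obp22a had amplitudes of 0.79 (SE 0.16) at ZT15.7 and 0.72 (SE 0.18) at ZT16.2 with the block, with limma's adjusted p of 0.171 and 0.231, and the accessory gland and testis list had its lowest medians outside the set at ZT3 as well. Obp56g had 0.35 (SE 0.14) at ZT14.1 without the block and was not called (limma's adjusted p = 1.00). The median amplitude without the block was 0.30 over the 31 members and 0.15 over all tested genes. With the block these medians were 0.29 and 0.16. An amplitude is never negative, so spread between arrays adds to it, and these medians do not show a rhythm of the family. Obp19a, for one, had 0.59 (SE 2.03) without the block.

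**Figure D5:**
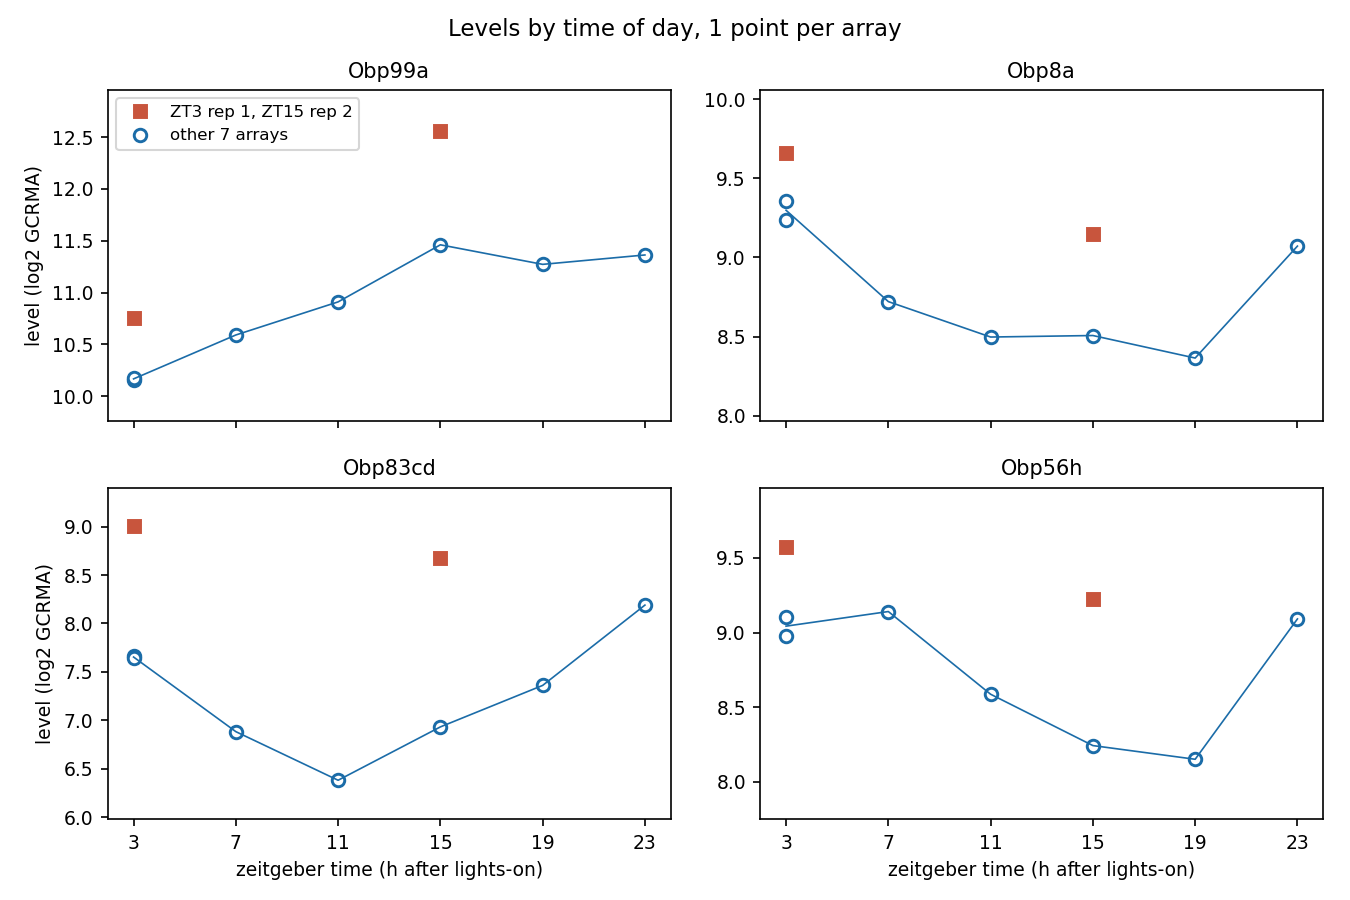
Levels on the log2 scale (vertical axis, a separate range in each panel that does not start at 0) of Obp99a, Obp8a, Obp83cd and Obp56h by zeitgeber time (horizontal axis, hours after lights-on), 1 point per array; filled squares are ZT3 replicate 1 and ZT15 replicate 2, open circles the other 7 arrays, and lines join the means of the circles. Obp99a is higher and the other 3 genes are lower at ZT15 than at ZT3 in each kind of array.

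For the other olfactory lists, 11 odorant receptor, 7 ionotropic receptor, 4 gustatory receptor and 10 perireceptor genes were tested. Genes of these lists can pass the filter on low values through the 2-array set alone. In each array outside the set, 2 or 3 odorant receptor genes and 0 or 1 gustatory receptor genes reached 5. Most tested genes of these 2 lists thus lay below 5 there, where a difference can hardly be measured. For ZT15 against ZT3 limma called 0 of them with or without the block, beside 0% of all probe sets. For the 24 h curve without the block it called 0, beside 0.033%. Without the 2-array set the counts for ZT15 against ZT3 were 0, 2, 0 and 2, beside 18.1%. At an unadjusted p of 0.05 for ZT15 against ZT3 the counts were 0, 2, 0 and 0 without the block, beside 2.35% of all probe sets, and 2, 3, 0 and 2 with it, beside 12%, all lower at ZT15. With the block 1 perireceptor gene of the 10 was called for the 24 h curve, beside 0.248% of all probe sets. It was Ugt35B1, a glucuronosyltransferase gene expressed in the antenna (limma's adjusted p = 0.0198).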

How the data were processed

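Gene expression was measured in samples labelled as fly heads with 9 Affymetrix arrays, 1 per sample. Per the submitters' processing notes the authors used GCRMA, with a version and settings not given in the sources used here, and no other step is recorded there. The deposited values are linear intensities up to 8120023. Their log2 reached 22.95, beyond a 16-bit scanner, and their natural log 15.91. Over 16 probe sets of the added controls, the natural log rose with log2 concentration at a slope of 0.983 (0.889 to 1.03 over the arrays) and log2 at 1.42, so the natural log was taken as log2 GCRMA. If log2 were the true scale, all folds would be raised to the power 1.44.

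Genes were named by GEO's platform annotation, and symbols were brought up to date by Entrez identifier in a RefSeq gene table. After 183 controls were left out of 18952 probe sets, those at 5 or more on at least 2 arrays (12105) were tested with limma 3.58.1 in R 4.3.3, for ZT15 minus ZT3 (6 group means, residual df of 3) and for a 24 h cosine (residual df of 6), with Benjamini-Hochberg adjustment over all tested probe sets. The scripts were tested on simulated arrays with independent noise and no 2-array set, for the fits without a block. That checks the code and not how the fits behave on arrays like these. The members, role lists and the 2-array set were chosen with earlier results of these data known. Genes with values were the 4 markers Obp99a, Obp56f, Obp83cd and Obp8a, the 6 of smallest p in each comparison with and without the 2-array set as a block, and the 6 of highest mean and of largest range; the rest are given by range, and the values of other genes of the lists were picked after they were seen. Replicate numbers are not stated to pair arrays. The number of arrays limits the precision.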

Additional observations from a re-analysis of the deposited data

How the results depend on the processing

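Members more than 8-fold above all arrays outside the 2-array set numbered 7 with log2 of the deposited values, quantile normalization and median centring, and 6 with probe sets averaged. The count of members called for ZT15 against ZT3 was 0 in every setting except without the 2-array set, where it was 10 (2190 of all probe sets). Their median difference was -0.32 to 0.58 on leaving out 1 array (-0.32 without ZT15 replicate 2), and that over all genes -0.19 to 0.07. For the 24 h curve, members called numbered 2 without the 2-array set and 3 (Obp56f, Obp8a and Obp99a) with array weights, whose estimation stopped before convergence, and 0 otherwise. The 4 probe sets called in all became 2 to 11 on leaving out 1 array, 1 after median centring, 30 with the block, 68 without the 2-array set, 1177 with array weights and 0 with time as a factor. Differences that turned sign were those of Obp56f (-0.23), Obp56h (0.0059), Obp56i (-0.93) and Obp83cd (0.57) without ZT15 replicate 1, of Obp56i (-0.12) and Obp83cd (0.15) without ZT3 replicate 1, and of Obp83cd with array weights (0.089); the cause was not tested. On leaving out 1 array the ranges were -0.23 to 2.50 for Obp56f, -0.98 to 0.0059 for Obp56h, -0.93 to 2.13 for Obp56i and -1.17 to 0.57 for Obp83cd. Obp99a stayed higher at ZT15, at 1.10 to 2.19 on leaving out 1 array, and Obp8a lower, at -0.91 to -0.27. With the replicate number as a block, 0 members were called and their median difference was -0.0037; deviations of same-numbered arrays correlated at -0.857, a sign set by the 2-array set holding replicate 1 of ZT3 and replicate 2 of ZT15, so that it does not bear on pairing, which the labels do not state.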
